A study of Mus musculus with 8 samples.

Results

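The 10 genes described here encode transcription factors that mark the basal, or myoepithelial, layer of the mammary gland or a mesenchymal cell state. They were chosen by gene name and are 10 of the 55933 genes in the deposited RNA-seq table: Trp63, Snai2, Sox10, Snai1, Zeb1, Zeb2, Twist1, Twist2, Msx1 and Msx2. The table holds 8 libraries of mammary epithelium, 1 per mouse, from 4 control and 4 Bmpr1a cKO animals on a C57BL/6 background taken at pregnancy day 14.5. In the cKO mice (K14-rtTA, teto-Cre and Bmpr1a with both alleles floxed), doxycycline in the drinking water switches on Cre in cells that use the keratin 14 promoter, which in this tissue are the basal cells. The controls are labelled WT and are littermates according to the study. Their own genotype, and whether they drank doxycycline, are not given in the sources used here. The glands were digested with collagenase and hyaluronidase and no cell layer was sorted, so each library holds the RNA of basal and luminal epithelium together with whatever stroma remained.

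The bilayered mammary epithelium has an outer basal layer that contracts at milk ejection and contains stem cells, and an inner luminal layer that makes milk. Trp63 (p63) is the master regulator of basal identity, and Snai2 (Slug) is a zinc finger repressor of the Snail family that keeps basal cells from a luminal fate. Snai1 (Snail), Zeb1, Zeb2, Twist1 and Twist2 are best known as drivers of the epithelial-mesenchymal transition, and outside that state they are used by fibroblasts and other stromal cells. BMP ligands signal through receptors such as BMPR1a to Smad proteins, and Id and Msx genes are classical targets of this pathway.

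Of the 10 members, 3 separated the groups. Trp63 and Snai2 were lower in cKO than in control libraries, and Snai1, the close relative of Snai2, was higher. The mean level in cKO was 0.683 of the control mean for Trp63, 0.704 for Snai2 and 1.41 for Snai1. For the other 7 members the groups overlapped. FPKM (fragments per kilobase of gene, corrected for depth) were tested as log2(FPKM + 1) with limma. The test covered the 15143 genes whose mean reached 0.5 FPKM, all 10 members among them. The study names a threshold of p under 0.05 and states no adjustment. At an unadjusted p under 0.05, 2 of the 10 members were lower, against 7.53% of all genes tested, and 1 was higher, against 8.85%. These shares are 1140 lower and 1340 higher genes, and scaling to an equal FPKM sum per library turned them into 1657 and 789 while the 3 members called remained the same. No member had an adjusted p under 0.05 (0 of 10, against 0.892% of all genes tested), so the 3 calls rest on unadjusted p.

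The facts of the whole series that touch these values are few. Each library had between 16123108 and 19896988 reads on genes. Bmpr1a, the targeted gene, stood at 10.6, 11.7, 8.74 and 9.52 FPKM across control replicates 1 to 4 and at 12.0, 12.0, 10.2 and 10.4 FPKM across cKO replicates 1 to 4. The libraries labelled cKO thus showed no loss of its RNA. This level sums all exons of the gene over all cells, so it does not test the deletion of a floxed part in basal cells, and the directions given here rest on the labels. Control replicates 1 and 3 held more lymphocyte RNA than the other libraries, with a summed level of 13.9 and 29.1 FPKM over 6 markers against 2.43 to 5.84 elsewhere. Fibroblast markers were high in control replicates 2 and 4 and in cKO replicate 1. The libraries also deviated from their group means by sets, replicates 1 and 2 against replicates 3 and 4, a split read from these same libraries that no label explains. Differences within each set are therefore given for the members that separated the groups.

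**Figure D1:**
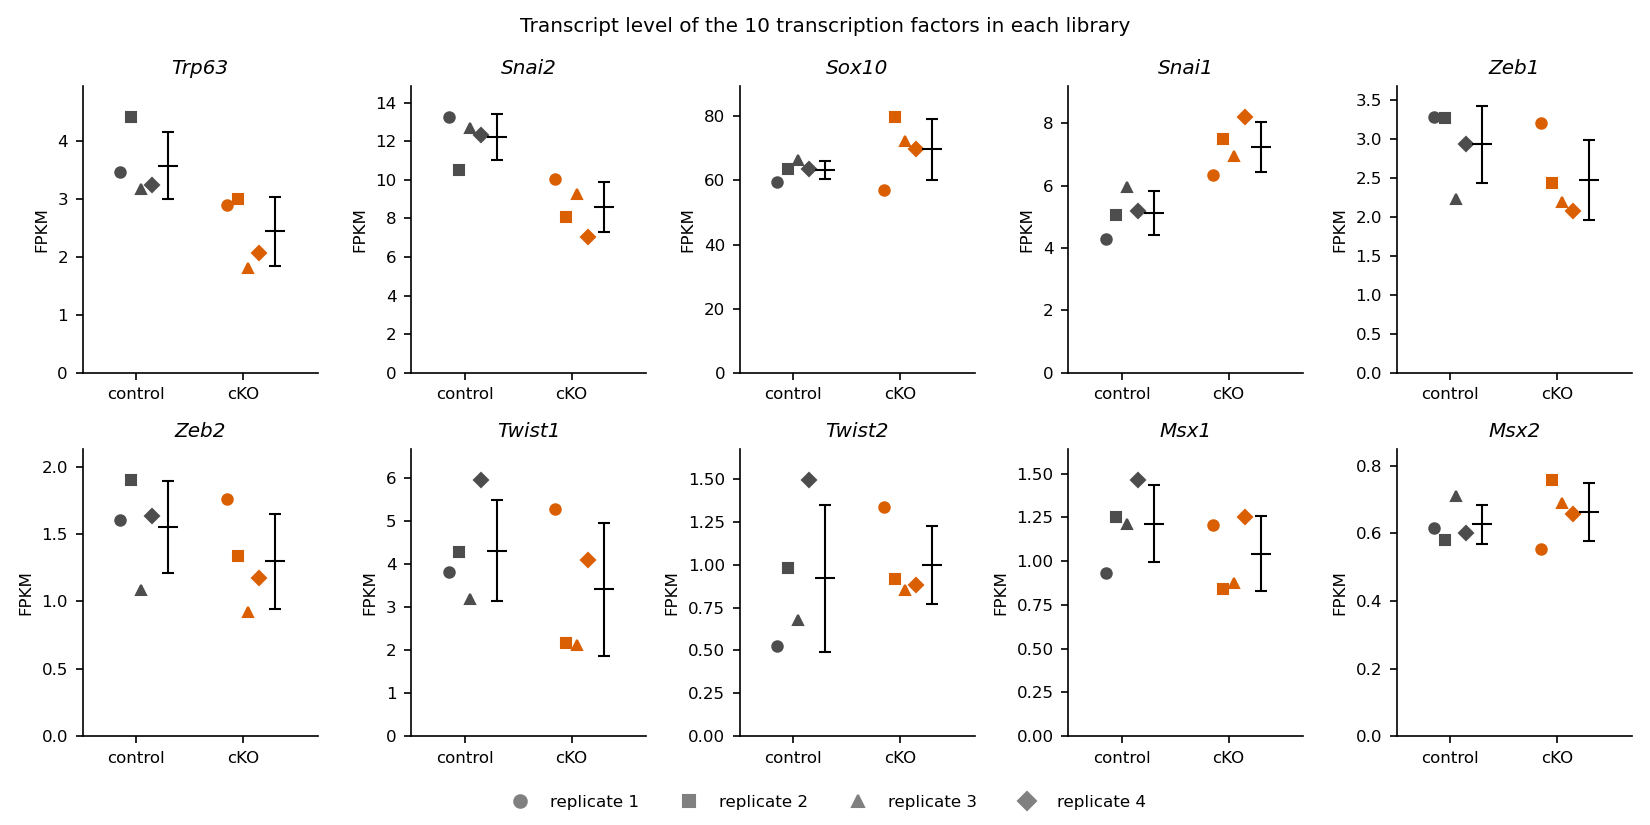
FPKM (y axis, from 0) of each of the 10 transcription factors in the 4 control (grey) and 4 cKO (orange) libraries, with marker shape giving the replicate and the bar beside each group its mean and SD. For Trp63 and Snai2 all 4 cKO libraries lie under the lowest control library, for Snai1 all 4 lie above the highest, and in the other 7 panels the groups overlap.

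Trp63 encodes the p53 family member without which basal epithelium does not form. It lies on chromosome 16 of GRCm38 from 25683763 to 25892102 on the plus strand, and its 8 annotated transcripts begin at 2 groups of start sites 118153 bases apart, which correspond to its long and its N-terminally truncated forms. The table sums over these, so the forms cannot be told apart. Control replicates 1 to 4 had 3.47, 4.42, 3.18 and 3.25 FPKM, and cKO replicates 1 to 4 had 2.90, 3.0, 1.81 and 2.07 FPKM. Every cKO library lay under every control library, and cKO replicates 3 and 4 were the lowest. The means were 3.58 ± 0.576 (SD, n = 4) and 2.45 ± 0.594 FPKM (SD, n = 4), from 241 to 643 reads per library. The log2 fold change was -0.42 ± 0.14 (SE, limma), with a 95% confidence interval of -0.73 to -0.11, an unadjusted p of 0.014 and, over all genes, an adjusted p of 0.181. The difference had the same sign within both sets of libraries, at -0.32 for replicates 1 and 2 and -0.52 for replicates 3 and 4. In this bulk RNA, fewer basal cells and less Trp63 RNA per basal cell cannot be told apart.

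Snai2 lies on the same chromosome, from 14705852 to 14709385 on the plus strand, with 1 annotated transcript. The 4 control mice, in the order of their replicate numbers, had 13.3, 10.5, 12.7 and 12.3 FPKM, and the 4 cKO mice 10.02, 8.07, 9.25 and 7.03 FPKM. The groups did not overlap, although cKO replicate 1 lay only 0.49 FPKM under control replicate 2. The means were 12.2 ± 1.19 (SD, n = 4) and 8.59 ± 1.31 FPKM (SD, n = 4), from 264 to 467 reads per library. Snai2 fell by 0.47 ± 0.11 on the log2 scale (SE, limma), with a 95% confidence interval of -0.72 to -0.22, an unadjusted p of 0.0023 and, over all genes, an adjusted p of 0.0901. The differences within the sets were -0.36 and -0.57.

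Snai1, the founding Snail family repressor, moved the other way. It lies on chromosome 2 from 167538195 to 167542814 on the plus strand, also with 1 annotated transcript. In the same order, the control libraries had 4.27, 5.06, 5.96 and 5.19 FPKM and the cKO libraries 6.33, 7.48, 6.95 and 8.20 FPKM. The lowest cKO library was above the highest control library. The means were 5.12 ± 0.694 (SD, n = 4) and 7.24 ± 0.796 FPKM (SD, n = 4), from 120 to 247 reads per library. The log2 fold change was 0.43 ± 0.10 (SE, limma), with a 95% confidence interval of 0.20 to 0.66, an unadjusted p of 0.0023 and, over all genes, an adjusted p of 0.0901. Within the sets it was 0.48 and 0.38.

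For each of these 3 genes the exact two-sided permutation test on FPKM gave p = 0.0286, the smallest that 4 libraries against 4 allow. Any gene whose groups do not overlap has this p, so it adds nothing to the absence of overlap. Groups without overlap were seen for 2 of 10 members with lower values, against 4.6% of all genes tested, and for 1 of 10 with higher values, against 6.1%. All 3 kept an unadjusted p under 0.05 and their direction under each of 20 other settings, the omission of any single library and of both lymphocyte-rich controls among them.

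**Figure D2:**
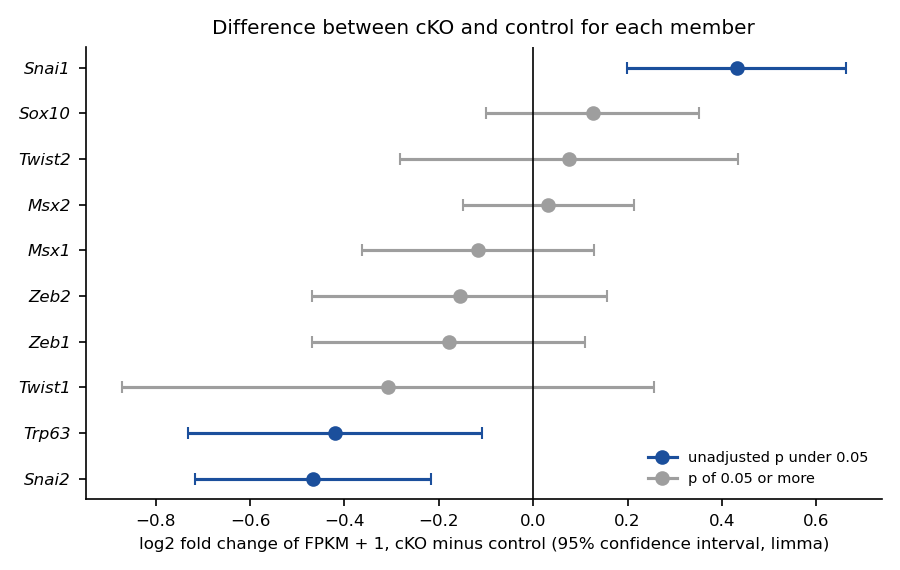
Log2 fold change of FPKM + 1 (x axis, cKO minus control) of each member with its 95% confidence interval from limma, in blue where the unadjusted p was under 0.05. The intervals of Snai2, Trp63 and Snai1 exclude 0, and those of the other 7 members include it.

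Because Snai2 fell and Snai1 rose, the balance of the Snail family shifted within each library. The ratio of Snai2 to Snai1 FPKM took the values 3.11, 2.08, 2.13 and 2.37 across the controls, by replicate, and 1.58, 1.08, 1.33 and 0.857 across the cKO libraries. Snai2 was the more abundant of the pair, per length, in all 4 controls and in 3 of the 4 cKO libraries, and in cKO replicate 4 Snai1 was the more abundant. The mean ratio was 2.42 ± 0.475 for the controls and 1.21 ± 0.314 for the cKO libraries (SD, n = 4 each), given without a test because both genes were already compared. Snai1 and Snai2 transcripts share 0 of their 1591 and 1983 words of 31 bases. The third Snail gene, Snai3, had 7.16, 7.55, 11.5 and 6.91 FPKM in control and 6.84, 8.16, 9.59 and 7.08 FPKM in cKO replicates 1 to 4, and the groups overlapped.

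**Figure D3:**
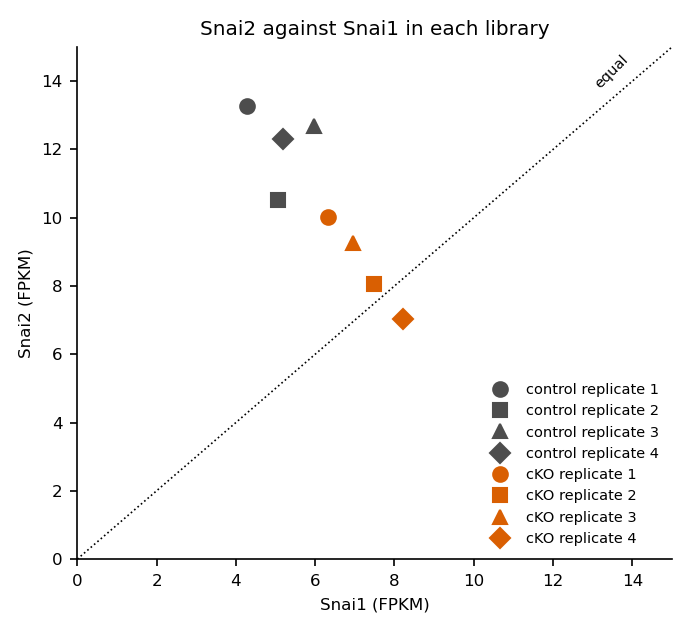
Snai2 (y axis, FPKM) against Snai1 (x axis, FPKM) in the 4 control (grey) and 4 cKO (orange) libraries, with a dotted line where both levels are equal. The control libraries lie in the upper left, with ratios of 2.08 to 3.11, and the cKO libraries lie nearer the line, with ratios of 0.857 to 1.58.

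The window before the start site is shown for the members that hold an E-box of the form CACCTG (reverse complement CAGGTG), the sequence bound by Snail and Zeb proteins, because Snai1 is the member that rose. Promoter sequences from RefSeq (GRCm38.p6) were at hand for 6 of the 10 members, in 9 entries: Snai1, Zeb2, Twist1, Twist2, Msx1 and Msx2. Entries were missing for Trp63, Snai2, Sox10 and Zeb1. In the 250 bases before the start site, CACCTG was found on either strand in 2 of the 9 entries, and in 17.2% of all 32851 windows of that length. The 6 capital letters mark it below, read 5′ to 3′ on the strand of the gene.
Snai1, chr2:167537945-167538194, plus strand: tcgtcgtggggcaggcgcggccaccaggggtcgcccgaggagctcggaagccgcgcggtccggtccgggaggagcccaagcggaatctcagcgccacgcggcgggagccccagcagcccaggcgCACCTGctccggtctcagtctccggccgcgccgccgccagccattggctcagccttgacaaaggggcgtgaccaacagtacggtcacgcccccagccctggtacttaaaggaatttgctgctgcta
Msx1, chr5:37824586-37824835, minus strand: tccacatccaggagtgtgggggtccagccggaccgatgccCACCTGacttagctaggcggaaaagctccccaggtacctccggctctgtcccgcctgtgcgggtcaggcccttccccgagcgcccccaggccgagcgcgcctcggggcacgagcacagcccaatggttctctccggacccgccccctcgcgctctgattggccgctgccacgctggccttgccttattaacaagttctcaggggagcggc
The match begins 126 bases before the start of Snai1 and 210 bases before the start of Msx1. The Smad box GTCTG (reverse complement CAGAC) was found in 1 of the 9, of Twist1, and in 42.2% of all windows, and the GC-rich Smad site GGCGCC in 0 of the 9 and 9.59% of all windows. A match describes letters only, and the RNA data do not bear on binding.

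Sox10, which marks basal and luminal progenitor cells in this gland as well as Schwann cells and melanocytes, was by far the most abundant member. It lies on chromosome 15 from 79154908 to 79165240 on the minus strand. From replicate 1 to 4 the control libraries held 59.7, 63.7, 66.5 and 63.7 FPKM and the cKO libraries 57.0, 79.9, 72.3 and 69.7 FPKM, from 3154 to 4020 reads each. In 3 of the 4 cKO libraries the level was above the highest control, and cKO replicate 1 was the lowest of all 8. The log2 fold change was 0.13 ± 0.10 (SE, limma; 95% confidence interval -0.10 to 0.35, adjusted p = 0.581). This value moved both ways with single cKO libraries. Without cKO replicate 1 the log2 fold change was 0.22, and limma gave an unadjusted p of 0.0191 and, over all genes, an adjusted p of 0.221. Without cKO replicate 2 it was 0.06, with an adjusted p of 0.834 (limma), and with an equal FPKM sum per library it was 0.07.

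The non-epithelial cells that use Sox10 are Schwann cells and melanocytes. Cdh19, a cadherin of the Schwann cell lineage, ranged from 0.216 to 0.708 FPKM over the 8 libraries. It had the lowest mean level of the 6 Schwann cell markers, so it does not measure how much Schwann cell RNA the libraries held. Of 5 melanocyte markers, Tyr was listed at 0 in all 8 libraries, Dct reached 0.0427 FPKM, Tyrp1 0.0668 FPKM and Mlana 0.273 FPKM. Pmel, the fifth, was present in all 8 libraries, at 0.604 to 1.14 FPKM, and its groups overlapped. The part of Schwann cells in the Sox10 level was not tested.

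The mesenchymal factors other than Snai1 were all under 6 FPKM and showed no difference beyond their spread. Zeb1, on chromosome 18, had 3.28, 3.27, 2.23 and 2.93 FPKM in control and 3.20, 2.44, 2.18 and 2.07 FPKM in cKO replicates 1 to 4. Its log2 fold change was -0.18 ± 0.13 (SE, limma; 95% confidence interval -0.47 to 0.11, adjusted p = 0.537), and it passed the unadjusted threshold only when cKO replicate 1 was left out (unadjusted p = 0.0449) or when limma-voom was fitted to recovered reads with the replicate number as a block (unadjusted p = 0.0447). Zeb2, its paralogue, which macrophages also use, lies on chromosome 2 from 44983632 to 45117395 and had 1.60, 1.90, 1.08 and 1.63 FPKM in control and 1.76, 1.34, 0.919 and 1.17 FPKM in cKO replicates 1 to 4 (log2 fold change -0.16 ± 0.14 (SE), limma adjusted p = 0.631). Leaving out 1 library moved this value to between -0.25 (without control replicate 3 or cKO replicate 1) and -0.07 (without cKO replicate 3), and to -0.09 without control replicate 2. In both genes replicate 3 was the lowest control library and replicate 1 the highest cKO library. The ratio of Zeb1 to Zeb2 stayed between 1.72 and 2.37 in all 8 libraries. The transcripts of the pair share 2 of 10418 and 20151 words of 31 bases. Exons of Zeb1 and Zeb2 overlap antisense genes (Gm10125 and Zeb2os) that held at most 12 and 9 reads per library, against at least 356 and 295 for Zeb1 and Zeb2.

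Twist1, a basic helix-loop-helix factor of mesoderm and fibroblasts on chromosome 12 from 33957671 to 33959829, varied most, relative to its mean, among the members with over 1 FPKM. Its level was 3.83, 4.29, 3.19 and 5.96 FPKM in control and 5.28, 2.16, 2.13 and 4.10 FPKM in cKO replicates 1 to 4. The highest control, replicate 4, and the highest cKO library, replicate 1, were both above all other libraries, so the groups overlapped (log2 fold change -0.31 ± 0.25 (SE), 95% confidence interval -0.87 to 0.25, limma adjusted p = 0.591). The log2 fold change of Twist1 was -0.50 without cKO replicate 1 (limma adjusted p = 0.329), -0.17 without cKO replicate 2 or control replicate 4, and -0.16 without cKO replicate 3. Twist2, on chromosome 1 from 91801461 to 91848028, had 0.527, 0.982, 0.677 and 1.49 FPKM in control and 1.34, 0.917, 0.853 and 0.882 FPKM in cKO replicates 1 to 4, from 29 to 89 reads per library. Its highest libraries were the same as those of Twist1. Its log2 fold change was 0.08 ± 0.16 (SE, limma adjusted p = 0.852) and took a negative sign when control replicate 1 or cKO replicate 1 was left out (-0.03 and -0.0019). Twist2 shares exon sequence with an antisense gene, Gm29100, that held at most 4 reads per library.

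Stromal markers, of fibroblasts and of pericytes, moved with these factors from library to library. The summed level of 7 fibroblast markers (Col1a1, Col1a2, Col3a1, Pdgfra, Dcn, Lum and Dpt) was 476, 822, 470 and 991 FPKM in control and 765, 455, 316 and 548 FPKM in cKO replicates 1 to 4. None of the 7 passed the test between groups (0 of 7 at an unadjusted p under 0.05, limma), with log2 fold changes from -0.61 for Dpt to -0.03 for Pdgfra. After removal of the group means, the mean log2 level of the 7 markers was related to that of Twist1 with Pearson's r = 0.88 and Spearman's rho = 0.90, to Twist2 with r = 0.85 and rho = 0.86, to Zeb2 with r = 0.84 and rho = 0.86, and to Zeb1 with r = 0.63 and rho = 0.60, as a description over 8 libraries that share their preparation and scaling. Without the 2 libraries farthest from the median of the markers, r was 0.77, 0.89, 0.67 and 0.39. With Msx1 r was 0.73, with Trp63 0.54, with Snai1 -0.18, with Snai2 -0.14, with Sox10 -0.51 and with Msx2 -0.75. For 6 pericyte markers, taken the same way, r was 0.92 with Zeb2, 0.81 with Twist1, 0.76 with Zeb1, 0.71 with Trp63, 0.62 with Twist2 and 0.57 with Msx1. Without the 2 libraries farthest from the median of the pericyte markers these values were 0.84, 0.56, 0.60, 0.46, 0.57 and 0.40. For Trp63 and Msx1 with the fibroblast markers r was 0.18 and 0.64 after the same omission. With the other 4 members the pericyte markers had r of -0.08 (Snai2), -0.32 (Snai1), -0.65 (Sox10) and -0.81 (Msx2). Zeb1, Zeb2 and Trp63 had the higher r with pericyte markers and Twist1, Twist2 and Msx1 with fibroblast markers. Twist1 and Twist2 were highest in the same control and the same cKO library as the fibroblast markers, control replicate 4 and cKO replicate 1.

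**Figure D4:**
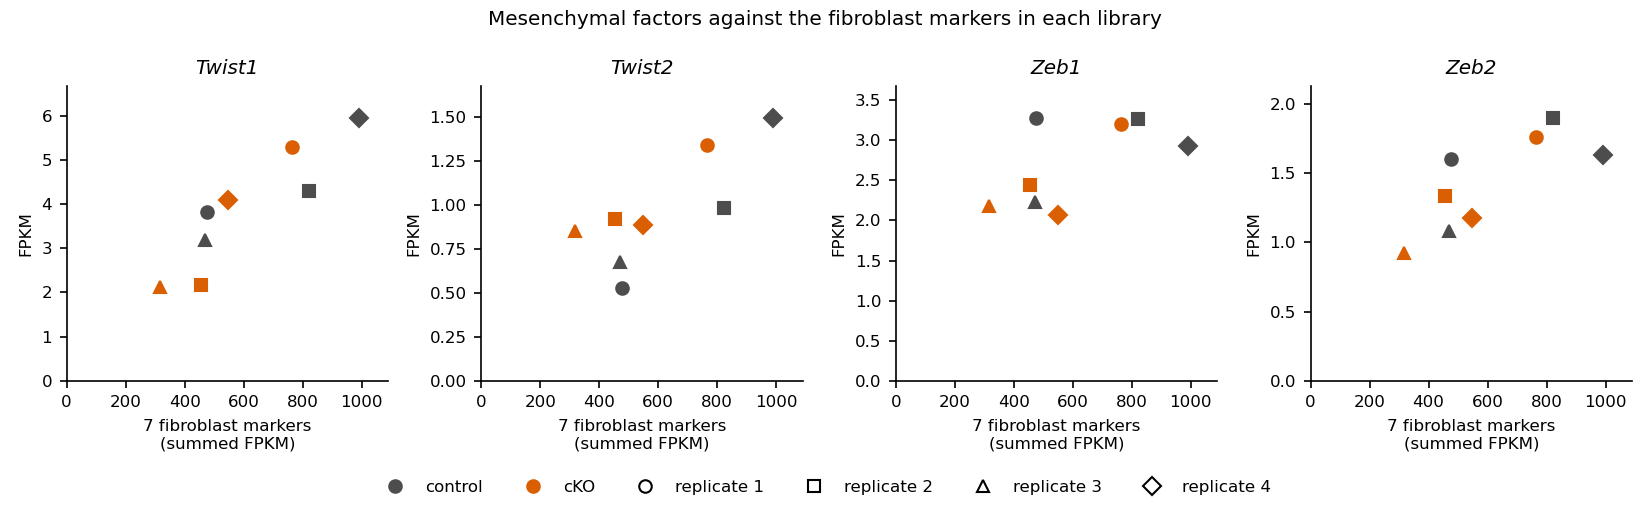
FPKM of Twist1, Twist2, Zeb1 and Zeb2 (y axes, from 0) against the summed FPKM of 7 fibroblast markers (x axis) in the 4 control (grey) and 4 cKO (orange) libraries, with marker shape giving the replicate. Twist1 is highest in control replicate 4 and cKO replicate 1, which have marker sums of 991 and 765 FPKM, and lowest in cKO replicate 3, which has the lowest sum of 316 FPKM.

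Zeb1 and Zeb2 were also read against the fibroblast markers directly. The difference in log2(FPKM + 1) between the gene and the mean of the panel changed by 0.16 from control to cKO for Zeb1 (exact permutation test, two-sided, p = 0.571) and by 0.18 for Zeb2 (p = 0.514). Neither was separable from the spread of the libraries, and with 6 pericyte markers in place of the fibroblast markers both differences took the opposite sign, at -0.04 and -0.02. Other non-epithelial markers were in part lower in cKO. Of 6 macrophage markers 2 fell at an unadjusted p under 0.05 (Adgre1 and C1qa, named after their values were seen), and their summed level was 77.2 to 108 FPKM in control and 56.2 to 82.3 FPKM in cKO. Of 6 endothelial markers 2 fell (Emcn and Pecam1, the latter likewise), with sums of 103 to 120 and 78.5 to 109 FPKM. The 6 adipocyte markers had sums of 2.12 to 2.97 FPKM in control and 4.94 to 15.3 FPKM in cKO. Only 3 of them reached the level for testing, 2 (Adipoq and Cidec, named for this reason) only through their cKO values, so no count is read from them. After removal of the group means, r over 8 libraries was 0.63 between the adipocyte markers and Snai1 and -0.70 between them and Snai2, and 0.57 and -0.48 without the 2 libraries farthest from the median of the markers, as a description. Snai1 was more closely related to the 9 contractile markers described below (r = 0.91, rho = 0.95, and r = 0.74 after the same omission). With both the basal and the luminal markers its r was 0.65 (0.86 and 0.39 after the omission). For Snai2 r was -0.43 with the contractile, -0.11 with the basal and -0.25 with the luminal markers. The part of these non-epithelial cells in the levels of Snai1, Snai2, Zeb1 and Zeb2 was not tested.

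Msx1 and Msx2, homeobox genes that respond to BMP in many epithelia, were the least abundant members together with Twist2. Msx1, on chromosome 5 from 37820485 to 37824583, had 0.932, 1.25, 1.21 and 1.46 FPKM in control and 1.20, 0.842, 0.874 and 1.25 FPKM in cKO replicates 1 to 4 (log2 fold change -0.12 ± 0.11 (SE), 95% confidence interval -0.36 to 0.13, limma adjusted p = 0.65). Its log2 fold change was -0.18 without control replicate 1, -0.06 without control replicate 4, -0.07 without cKO replicate 2 and -0.08 without cKO replicate 3, and -0.21 both with a pseudocount of 0.1 and with limma-voom on recovered reads. Msx2, on chromosome 13 from 53466884 to 53473074, had 0.616, 0.581, 0.710 and 0.601 FPKM in control and 0.553, 0.758, 0.691 and 0.657 FPKM in cKO replicates 1 to 4 (log2 fold change 0.03 ± 0.08 (SE), 95% confidence interval -0.15 to 0.21, limma adjusted p = 0.882). Msx2 rested on 33 to 41 reads per library, and Msx1 on 43 to 85, so counting error weighs more on them than on Sox10 or Snai2. Of 9 other BMP targets tested, 1 was lower at an unadjusted p under 0.05 and 0 were higher. The 1 was Id4, with a log2 fold change of -0.44 ± 0.11 (SE, limma adjusted p = 0.0952), and the highest was Hey1 with 0.04 ± 0.09 (SE). The median log2 fold change of the 9 was -0.16, beside 0.00 over all genes tested.

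In order of mean level over the 8 libraries, per length, the members were Sox10 (66.5 ± 7.33 FPKM, SD, n = 8), Snai2 (10.4 ± 2.25), Snai1 (6.18 ± 1.33), Twist1 (3.87 ± 1.36), Trp63 (3.01 ± 0.813), Zeb1 (2.70 ± 0.523), Zeb2 (1.43 ± 0.350), Msx1 (1.13 ± 0.220), Twist2 (0.959 ± 0.320) and Msx2 (0.646 ± 0.0703). Sox10 was above Snai2, and Zeb1 above Zeb2, in all 8 libraries with no overlap of their ranges, and every other neighbour in this order overlapped the next. The order of Trp63 and Zeb1 differed by group, with means of 3.58 and 2.93 FPKM in control and 2.45 and 2.47 FPKM in cKO. Sox10 stood at the 95.4th percentile of all genes tested and Msx2 at 5.63. The lengths behind these values run from 1621 bases for Snai1 to 20203 bases for Zeb2, whose 29 annotated transcripts are merged, and the level of a gene that uses a short part of its merged length is understated.

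The basal layer as a whole did not move with Trp63 and Snai2 in 1 direction. Of 9 basal markers, 3 were lower at an unadjusted p under 0.05 (Krt14, Cdh3 and Lama3, of which Krt14 and Cdh3 were named after their values were seen) and 1 was higher (Itgb4, likewise), with a median log2 fold change of -0.03. Krt14, a keratin of the basal layer whose promoter drives rtTA, through which doxycycline switches on Cre, fell by 0.39 ± 0.14 on the log2 scale (SE, limma adjusted p = 0.209). Krt5, its partner, changed by 0.02 ± 0.11. Cdh3 (P-cadherin), the adhesion molecule of basal cells, fell by 0.23 ± 0.07 (SE, limma adjusted p = 0.142). The lowest of the panel was the laminin chain Lama3 with -0.40 ± 0.12 and the highest its partner chain Lamb3 with 0.21 ± 0.10. Of 9 contractile markers, whose cells of origin these unsorted libraries do not give, 0 were lower and 1 was higher. This was the oxytocin receptor Oxtr, with a log2 fold change of 0.85 ± 0.17 (SE, limma adjusted p = 0.0644).

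Set against these panels in each library, Trp63 and Snai2 were lower by less certain margins. Relative to the mean log2 level of the 9 basal markers, Trp63 changed by -0.32 (exact permutation test, two-sided, p = 0.229) and Snai2 by -0.37 (p = 0.0857), and in both comparisons the groups overlapped. The value of Trp63 ran from -0.19 without cKO replicate 3 to -0.42 without cKO replicate 1. Relative to the contractile markers the changes were -0.56 (p = 0.114) and -0.61 (p = 0.0857), and relative to Krt5 and Krt14 alone -0.24 (p = 0.429) and -0.28 (p = 0.2), each by the same exact permutation test. The direction was the same against each panel, but a fall in Trp63 or Snai2 beyond that of the basal markers was not established. These tests took no account of the sets of libraries. Trp63 minus the basal panel was -3.58, -3.32, -3.86 and -3.73 in control and -3.63, -3.67, -4.34 and -4.13 in cKO replicates 1 to 4. Within each set both cKO libraries lay under both controls, for Snai2 only within replicates 3 and 4. The sets were read from these same libraries, and a block of sets was not tested here. Without cKO replicate 1, Snai2 against the basal panel reached -0.47 (p = 0.0286, exact permutation test). Within the groups Trp63 was low in the libraries where the basal markers were high (r = -0.81, rho = -0.79 over 8 libraries, group means removed, a description only), with Trp63 higher in replicates 1 and 2 and Krt14 in replicates 3 and 4 of each group. This was not particular to Trp63 or to basal markers: r was -0.88 between Trp63 and the luminal markers, and -0.92 and -0.94 between the basal markers and Zeb1 and Zeb2.

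Of 8 other transcription factors of the basal layer, 4 reached the level for testing and 0 of these passed an unadjusted p under 0.05 (0 with an adjusted p under 0.05, limma). The lowest was Lbh, with a log2 fold change of -0.15 ± 0.07 (SE), and the highest Srf, the regulator of the contractile program, with 0.04 ± 0.14 (SE). Trp73, the p53 family relative of Trp63, stood at or under 0.131 FPKM in all libraries.

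The counts that follow stand beside 7.53% lower and 8.85% higher genes among all genes tested. Among 10 tested mesenchymal transcription factors that are no members, 2 were lower at an unadjusted p under 0.05 and 0 were higher. These were Foxf1, a stromal forkhead factor, with a log2 fold change of -0.35 ± 0.13 (SE, limma adjusted p = 0.226), and Tcf3, whose E proteins pair with Twist factors and bind E-boxes, with -0.33 ± 0.07 (SE, limma adjusted p = 0.0793, named after its values were seen). The highest was Meox2, at 0.00 ± 0.17 (SE). Among 12 effectors of the mesenchymal state, 2 were lower and 0 were higher: Itga5, a fibronectin receptor chain, with -0.31 ± 0.07 (SE, limma adjusted p = 0.0797), and Cdh2 (N-cadherin, named after its values were seen), with -0.27 ± 0.08 (SE, limma adjusted p = 0.152) at a level under 1 FPKM. The highest effector was Tnc with 0.09 ± 0.10 (SE), and the list's median was -0.21.

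Genes that guard the epithelial state include direct targets of Snail repression. Of 11 tested, 3 were higher at an unadjusted p under 0.05 and 0 were lower, and the other 8 did not pass, with a median log2 fold change of -0.08. Of all genes tested 8.85% were higher and 7.53% lower, and 6 of the 11 guardians had a negative log2 fold change. The 3 were Esrp1 and Esrp2, splicing regulators of epithelium, with 0.29 ± 0.06 (SE, limma adjusted p = 0.0653) and 0.22 ± 0.07 (SE, limma adjusted p = 0.157), and Grhl1, a Grainyhead factor, with 0.28 ± 0.11 (SE, limma adjusted p = 0.229). Esrp2 and Grhl1 were named after their values were seen. The lowest was Ovol2, an Ovo-like zinc finger repressor, with -0.18 ± 0.09 (SE, limma adjusted p = 0.351). Cdh1 (E-cadherin), the classical target that Snail proteins repress, had a log2 fold change of -0.13 ± 0.08 (SE, limma adjusted p = 0.462), and is named for that role.

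**Figure D5:**
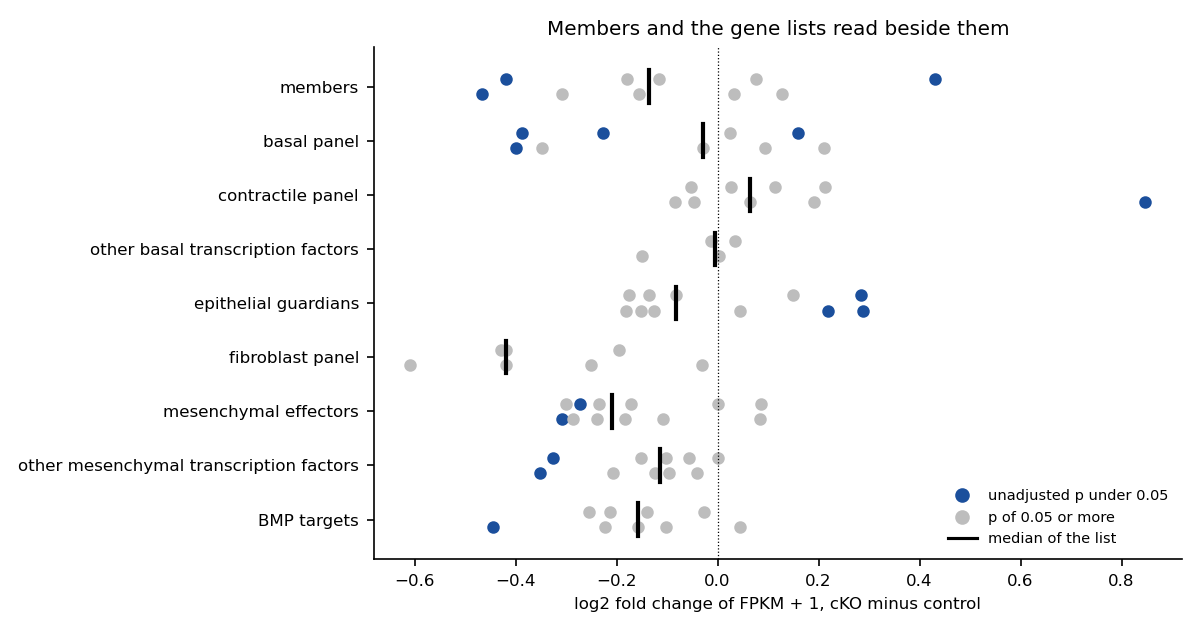
Log2 fold change of FPKM + 1 (x axis, cKO minus control) of each tested gene in the member list and 8 other lists, in blue where the unadjusted p was under 0.05, with a black bar at each list's median. The blue points of the epithelial guardians lie to the right of 0, but 6 of the 11 guardians drawn lie to the left, and their median is -0.08. The blue points of the mesenchymal effectors and other mesenchymal transcription factors lie to the left of 0. The fibroblast panel has the lowest median of the lists drawn (-0.42) and no blue point.

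The genes whose pattern over the 8 libraries was most like that of Trp63, among 12922 genes averaging 1 FPKM or more, were Stard13 (r = 0.99), Zbtb46 (0.98), Tbc1d16 (0.98), Trim12a (0.98) and Cd200 (0.98). With the group means removed r was still 0.95 to 0.98, so the likeness included the order of libraries within the groups. Their log2 fold changes ran from -0.32 to -0.18. Those most like Snai2 were Leo1 (r = 0.97), Myo1e (0.97), Rrp9 (0.97), Fst (0.96) and Itga5 (0.96), with 0.85 to 0.92 after removal of the group means. Fst encodes follistatin, a secreted inhibitor of activin and BMP ligands, and had 55.2 ± 5.56 FPKM in the controls and 36.3 ± 4.96 FPKM in the cKO libraries (SD, n = 4 each, log2 fold change -0.59 ± 0.11 (SE), limma adjusted p = 0.0502). These are the highest of many correlations over few libraries that share their scaling, and are given as a description.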

How the data were processed

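RNA-seq libraries of 4 control and 4 cKO mice were compared. The authors mapped the reads with Hisat2 to GRCm38, calculated FPKM and used DESeq2 at p under 0.05 without a stated adjustment. The submitters' processing notes list featureCounts 1.5.0-p3, StringTie 1.3.3b and the build mm9, but 99.68% of the 55480 gene identifiers found in GENCODE vM21 have the same coordinates there, so the coordinates are GRCm38. The annotation release and the use of strand in counting are not given in the sources used here.

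The deposited FPKM are not counts. Multiplied by gene length, the values of a library all fell on whole steps of the same size (100% of values above 0, tolerance 0.01 of a read), and these steps match median-of-ratios size factors. Reads on genes were recovered from these steps (16123108 to 19896988 per library) and used for limma-voom as an alternative. The main test was limma 3.58.1 (R 4.3.3) on log2(FPKM + 1), a scale that understates changes of low genes, with trend and Benjamini-Hochberg adjustment over 15143 genes. Single genes and differences to marker panels were compared with exact two-sided permutation tests, and all scripts ran in Python 3.11.15 with pandas 2.3.3 and scipy 1.17.1.

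The members and all lists were chosen with earlier results of these data known, and lists are described by counts and medians alone. The genes named are the members, the lowest and highest gene of each list with at most 2 more that passed the adjusted threshold, the 5 genes most like Trp63 and Snai2, and Bmpr1a. Snai3, Trp73, Krt5, Cdh1, Cdh19, Dct, Tyrp1 and Mlana were added after values were seen, and other exceptions are marked. The limma procedure was tested on simulated data. Alternatives covered the pseudocount (0.1), filters, scaling (TPM with and without milk genes, a second median-of-ratios scaling), blocks, empirical Bayes without trend, limma-voom, other panels and each library left out. The omission of both lymphocyte-rich controls was added after seeing the data. Each library is taken to be a separate mouse. Results of the Schwann cell marker list that need items withheld here are not reported.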

Additional observations from a re-analysis of the deposited data

Results flagged for a closer look

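Among 30 groups of 4 libraries examined (10 members, Bmpr1a and 4 values relative to a panel), 1 held a library far from the other 3. Twist2 in cKO replicate 1 stood at 1.34 FPKM, with a gap to the next cKO library that was 0.869 of the group's range, past Dixon's 95% critical value. Chance gives such a value in about 1 of 20 groups. The same library had the highest fibroblast marker sum of the cKO group, 765 FPKM, and the part of these cells in its Twist2 level was not tested.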

How the results depend on the processing

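The calls for Trp63, Snai2 and Snai1 at an unadjusted p under 0.05 were kept under all 20 alternatives for each gene. Their adjusted p was less stable: 2 members passed 0.05 when the sets of replicates 1 and 2 and of 3 and 4 formed a block (Snai1 0.0448 and Trp63 0.0456, but Snai2 0.0749), a split read from these libraries themselves, and 2 passed with limma-voom on recovered reads and the replicate block (Trp63 0.0279, Snai2 0.0316). In these settings 442 and 680 of all 15143 genes tested passed as well, against 135 in the main test. Adjusted p over the alternatives ran from 0.0279 to 0.433 for Trp63, 0.0316 to 0.439 for Snai2 and 0.0448 to 0.321 for Snai1, highest without both lymphocyte-rich controls, where 2 controls remained. The count of members higher in cKO was 1 to 2 over the omissions of a single library, and 2 (Snai1 and Sox10) without cKO replicate 1. The cause was not tested.

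Against the fibroblast markers, Zeb1 reversed with the pericyte panel (-0.0401) and ranged from -0.0193 to 0.32 over the omissions of a library, and Zeb2 reversed with the pericyte panel (-0.0161) and ranged from 0.0191 (without control replicate 4) to 0.31 (without control replicate 1). Snai2 against the basal panel ranged from -0.47 to -0.27 over these omissions, and passed 0.05 without cKO replicate 1, and Trp63 from -0.42 to -0.19. Twist2 ranged from -0.0255 to 0.21 over the omissions and was -0.16 without both lymphocyte-rich controls. Of the other members that did not pass, Zeb1 ranged from -0.27 to -0.12 and Msx2 from 0.01 to 0.07 over these omissions. The cause was not tested.

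Under the replicate block in limma, Trp63 had an adjusted p of 0.0812, Snai2 of 0.0706 and Snai1 of 0.0741 and the block changed none of the 3 counts of members. The numbers do not pair the libraries: same-numbered libraries correlated at 0.0797 to 0.137 in their deviations from the group means, other numbers of the same set at 0.0873 to 0.178 and numbers across sets at -0.21 to -0.072, and not every library correlated best with its own number. By the paired exact permutation test over 4 pairs, which allows no p under 0.125, Trp63 and Snai2 against the basal panel had p = 0.125 and Zeb1 and Zeb2 against the fibroblast panel p = 0.625. Twist2 and Msx2 were not tested at a mean FPKM of at least 1. The median log2 fold change of all genes was 0.000715, and over the other scalings it ran from -0.0476 (TPM) to 0.000747. Twist2, Msx1 and Msx2 had the fewest reads, at most 89 per library. Over all genes, 135 had an adjusted p under 0.05, against 252 with limma-voom on recovered reads, 680 with its replicate block, 50 with the replicate block alone, 442 with the block of sets, 10 with no filter, 1 without both lymphocyte-rich controls and 0 to 78 over the omissions of a library.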
